A study of Mus musculus with 12 samples.

Results

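Wnt2, Gdpd5, Inhba and Abi3bp are genes outside the actin cytoskeleton whose signals were much lower in the striatum of SRF mutant mice than in that of control mice. They were selected on the size of their genotype differences after saline and after cocaine, so those differences describe the choice and are given without a test. They are covered by 5 of the 22690 probe sets of the array, 2 of them for Abi3bp and 1 for each of the other genes. The filter for testing asked for a log2 signal above 4 in 3 or more of the 12 arrays and left 11102 of all probe sets and 4 of these 5, with the other Abi3bp probe set below the filter. Wnt2, Inhba and Abi3bp passed only through the control animals, since none of their mutant arrays read above 4. Gdpd5 read above 4 in all 12 arrays.

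The arrays measured total RNA from the striatum, the nucleus accumbens included, of littermate female mice aged 10 to 15 weeks. SRF, the serum response factor, is a transcription factor that binds CArG boxes near activity-induced and actin cytoskeleton genes. There were 4 groups of 3 arrays, from control or mutant animals given saline or cocaine (25 mg/kg) 1 hour before death, and the titles call the 3 arrays of a group biological replicates. The labels used here name neither the strain, the change made to Srf nor the cells that carry it. Groups follow the sample titles: the description fields assign other groups, and the treatment text names cocaine for every sample. The Srf probe set that was tested read 6.97 to 7.21 in the 6 arrays titled control and 5.01 to 5.49 in the 6 titled mutant, so Srf was lower in every array with a mutant title. Arrays correlated at 0.986 to 0.993 within groups and 0.976 to 0.99 between groups.

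Wnt2 is a secreted ligand that binds Frizzled and LRP receptors and stabilises beta-catenin. Inhba encodes the beta-A chain of activin A, a ligand of the TGF-beta family that signals through activin receptors to Smad proteins, and in neurons its transcript is known to rise with activity. Gdpd5, also called GDE2, is a membrane glycerophosphodiesterase that cuts GPI anchors of surface proteins such as RECK and is known for its part in neuronal differentiation. Abi3bp is an extracellular matrix protein named for binding Abi3, a protein of the family that includes subunits of the actin-regulating WAVE complex.

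RefSeq promoter windows of GRCm38.p6 were at hand for 2 of the 4 genes, Wnt2 and Inhba. They are shown because SRF binds the CArG box, a palindromic motif of 10 letters, and the mutants carried less Srf transcript. Each window is the 250 bases before an annotated start, Wnt2 at chr6:18030446-18030695 on the minus strand and Inhba at chr13:16011601-16011850 on the plus strand. Capitals mark the first of the 10-base stretches with the fewest differences from the CArG box.
Wnt2: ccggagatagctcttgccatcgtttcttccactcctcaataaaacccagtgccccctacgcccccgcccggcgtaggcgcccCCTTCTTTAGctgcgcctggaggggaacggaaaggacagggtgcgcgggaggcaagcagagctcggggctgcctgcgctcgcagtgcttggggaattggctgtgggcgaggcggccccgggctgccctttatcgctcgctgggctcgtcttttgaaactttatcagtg
Inhba: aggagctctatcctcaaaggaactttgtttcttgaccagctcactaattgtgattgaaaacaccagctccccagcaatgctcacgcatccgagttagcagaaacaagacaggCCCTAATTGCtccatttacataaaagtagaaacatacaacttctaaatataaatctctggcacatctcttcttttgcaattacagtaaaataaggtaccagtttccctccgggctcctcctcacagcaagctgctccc
Neither window held a CArG box on either strand, and the closest stretch of each had 2 mismatches. Of all 32851 promoter windows of this length, 1.47% held the box and 75.2% came within 2 mismatches of it. For comparison, the window of Srf itself held CCATATAAGG and CCATAAAAGG. These are matches of letters in 1 short window per gene and say nothing of binding elsewhere. The GC content was 63.6% for Wnt2 and 43.2% for Inhba.

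Wnt2 separated the genotypes most widely. It read 4.64, 4.49 and 4.41 in saline-treated controls and 4.38, 4.31 and 4.43 in cocaine-treated controls. The saline-treated mutants stood at 2.75, 2.98 and 2.99, and the cocaine-treated mutants at 2.79, 2.69 and 2.69. The lowest control array lay 1.32 above the highest mutant array on the log2 scale, and no group mean had an SD over 0.132 (n = 3 each). The difference of mutant from control was −1.61 after saline (SE 0.0895) and −1.65 after cocaine (SE 0.0895), or −1.63 averaged over treatments (SE 0.0633), a 3.09-fold lower signal. All mutant values lay under the filter's floor, and how far the authors' background correction sets the fold there was not tested.

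Gdpd5 was the only member with a signal above the filter's floor of 4 in every array of both genotypes, though its mutant arrays stayed under 5. Controls given saline read 5.96, 6.05 and 5.82, and controls given cocaine 5.78, 6.01 and 5.92. Mutants given saline read 4.75, 4.56 and 4.49, and mutants given cocaine 4.75, 4.67 and 4.69. All mutant arrays lay below all control arrays, with a gap of 1.03. The difference was −1.34 after saline (SE 0.0946) and −1.20 after cocaine (SE 0.0946), which averages to −1.27 (SE 0.0669), 2.41-fold lower in mutants.

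Inhba was lower in mutants with 1 array apart from the rest. It read 4.35, 4.42 and 4.38 in saline-treated controls and 4.63, 4.45 and 4.50 in cocaine-treated controls. Levels were 2.85, 2.86 and 3.82 in mutants given saline, and 3.52, 3.20 and 3.42 in mutants given cocaine. The genotypes did not overlap, but the gap of 0.53 was set by replicate 3 of the saline-treated mutants, at 3.82, which gave that group an SD of 0.556 (n = 3). The difference was −1.20 after saline (SE 0.201), −1.15 after cocaine (SE 0.201) and −1.18 averaged (SE 0.142), a 2.26-fold lower signal. Without that array, the saline difference was −1.52.

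Abi3bp varied most among control animals. Its tested probe set read 4.83, 4.75 and 4.0 in saline-treated controls and 5.12, 4.53 and 4.24 in cocaine-treated controls, so group SDs were 0.462 and 0.446 (n = 3 each). Mutants were tightly grouped, at 3.17, 3.34 and 3.43 (saline) and 3.38, 3.57 and 3.41 (cocaine), with SDs of 0.129 and 0.101 (n = 3 each). The genotypes were 0.42 apart at their nearest arrays. The averaged difference was −1.19 (SE 0.158), 2.29-fold lower, with −1.21 after saline and −1.17 after cocaine.

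The other Abi3bp probe set showed much less. It read 3.28 to 3.82 in the control arrays and 3.04 to 3.38 in the mutant arrays, all under the filter's floor, and the genotypes overlapped. In a fit without the filter its averaged difference was −0.25 (SE 0.0963). Over the 6 control arrays the Abi3bp probe sets had a Pearson r of 0.798, and the highest array of both was replicate 1 of the cocaine-treated controls. Both probe sets are annotated to the same transcript accession. Which part of the transcript each one reads, and whether either also reads other transcripts, is not in the sources used here. The 2.29-fold lower Abi3bp signal therefore rests on 1 of the 2 probe sets.

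**Figure D1:**
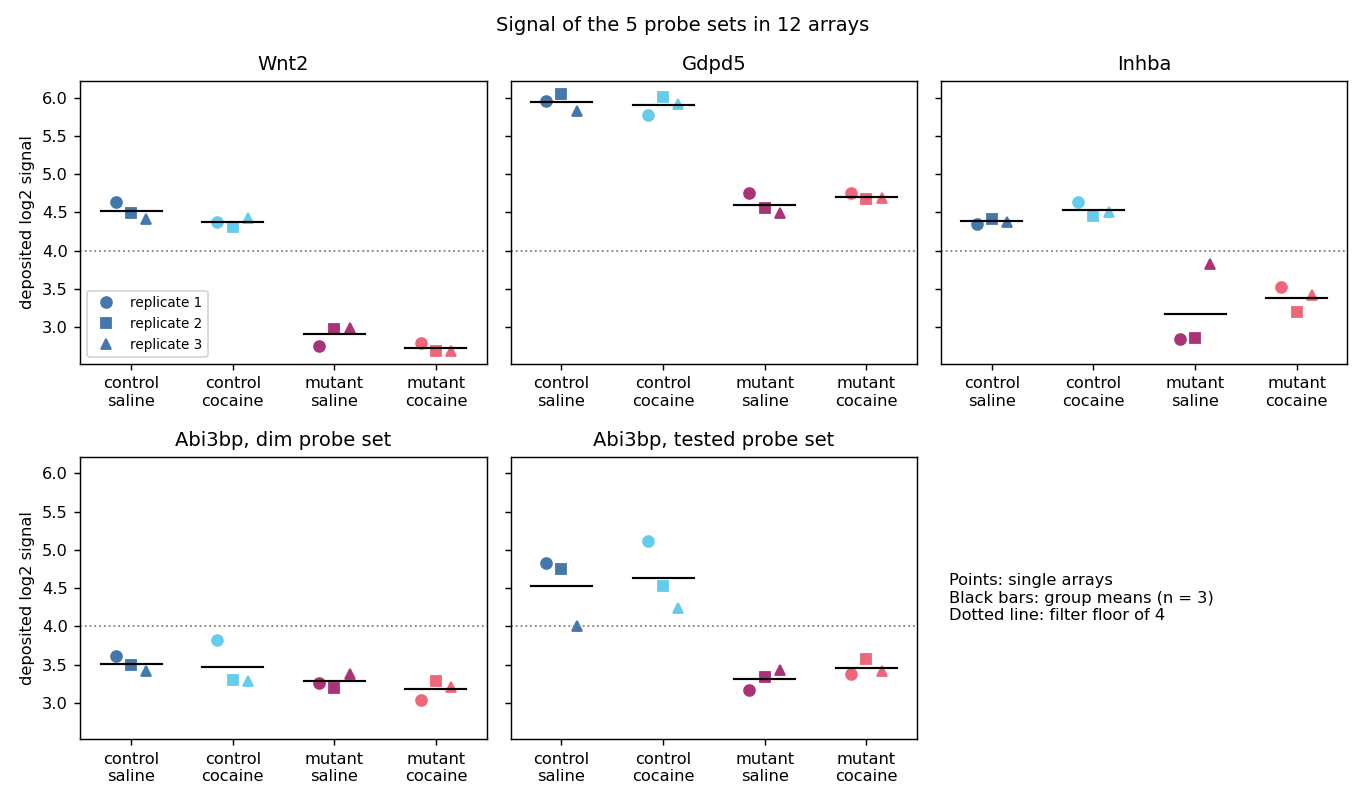
Deposited log2 signal (vertical axis) of the 5 probe sets in each of the 12 arrays, by genotype and treatment, with black bars for group means (n = 3) and a dotted line at the filter's floor of 4. The mutant arrays lie below the control arrays for Wnt2, Gdpd5, Inhba and the tested Abi3bp probe set, while the dim Abi3bp probe set reads 3.04 to 3.82 throughout and overlaps.

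Among all probe sets tested, 3.12% had every mutant array below every control array, and 5.05% were called lower in mutants over both treatments by limma (Benjamini-Hochberg adjusted p under 0.05). By treatment, 1.64% were called lower after saline and 1.92% after cocaine. All 4 tested members are in each of these sets, as their choice implies, and nothing is read from that. Ranked from the lowest averaged difference, Wnt2 stood at 4 of 11102, behind both Egr2 probe sets (−2.95 and −2.13) and Srf (−1.83), and followed by the synaptic adhesion gene Lrrtm1 (−1.44) and Erdr1 (−1.30). Gdpd5 stood at 8, next to Synpr, a synaptic vesicle protein gene, and the gamma-actin gene Actg1 (both −1.25). Abi3bp stood at 16 and Inhba at 19, among Egr4 and the filamin gene Flna (both −1.20) above them, Ddit4l and the tropomyosin gene Tpm1 (both −1.18) between them, and Syt9 (−1.13) and the calcium channel gene Ryr1 (−1.01) below. Only 24 tested probe sets (0.216%) had a log2 difference of −1 or lower.

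**Figure D2:**
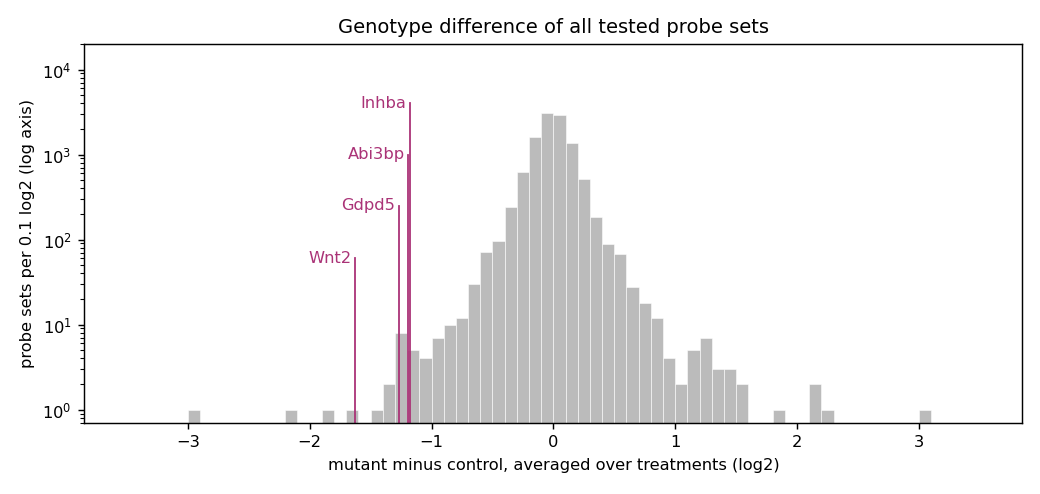
Number of tested probe sets (vertical log axis) by averaged mutant minus control difference in bins of 0.1 log2 (horizontal axis), with vertical lines at the 4 tested members, whose line heights carry no value. Wnt2 at −1.63, Gdpd5 at −1.27, Abi3bp at −1.19 and Inhba at −1.18 lie in the far lower tail, for which they were chosen.

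The response to cocaine was not used in choosing the genes. None of the 4 tested members was called by limma for cocaine in either genotype or over both, and 1 of 4, Wnt2, had an unadjusted p under 0.05 for the average over genotypes. Of all tested probe sets, 2.31% were called for the averaged response, 0.45% in controls and 1.92% in mutants. At an unadjusted p under 0.05 these shares were 11.5%, 6.34% and 10.7%. The intervals below give the sizes of response that 3 arrays a group still allow.

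Wnt2 read lower after cocaine by 0.16 on average (log2 difference −0.16, 95% interval −0.30 to −0.02, limma adjusted p = 0.333). The difference was −0.14 in controls and −0.18 in mutants, and saline and cocaine arrays overlapped in both genotypes. Gdpd5 differed by 0.03 (95% interval −0.11 to 0.18, limma adjusted p = 0.915). Abi3bp differed by 0.12 (95% interval −0.22 to 0.47, limma adjusted p = 0.854).

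Inhba read 0.18 higher with cocaine on average (95% interval −0.13 to 0.48, limma adjusted p = 0.729), 0.15 higher in controls and 0.20 higher in mutants. In controls every cocaine array lay above every saline array, which held for 6.72% of all tested probe sets. In mutants the saline array at 3.82 lay above all 3 cocaine arrays, while the other 2 saline arrays lay below them. Without this array, replicate 3 of the saline-treated mutants, the averaged Inhba response was 0.34 (limma adjusted p = 0.025) and the response in mutants 0.53 (limma adjusted p = 0.0234), both called. No other fit called either response, and all mutant Inhba values lay under the filter's floor of 4. The array was singled out by its own Inhba value, so nothing is read from these calls. The response in controls has no array in common with the mutant response and stayed uncalled at 0.15 (limma adjusted p = 0.903 in the fit without that array).

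Of 6 immediate early genes looked at, 5 (Fos, Fosb, Arc, Dusp1 and Junb) had their highest level among the 6 saline arrays in that same array. The exception was the nuclear receptor gene Nr4a1, at 7.61 there and 7.66 in replicate 1 of the same group. Fos, which pairs with Jun proteins to form AP-1, read 6.78 there, against 5.65 and 5.18 in the other saline-treated mutants and 5.17, 3.71 and 4.14 in saline-treated controls. Fosb, another AP-1 component, read 3.57, against 2.42 and 2.28 in the other saline-treated mutants. Arc, which encodes a postsynaptic protein induced by activity, read 6.40, against 5.66 and 5.08. Fos, Fosb and Arc stayed well below the cocaine-treated mutants, where Fos read 9.25 to 9.68, Fosb 5.51 to 6.06 and Arc 8.06 to 8.74. These genes were chosen after the Inhba values were seen, and the part of this difference between arrays in the Inhba result was not tested.

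**Figure D3:**
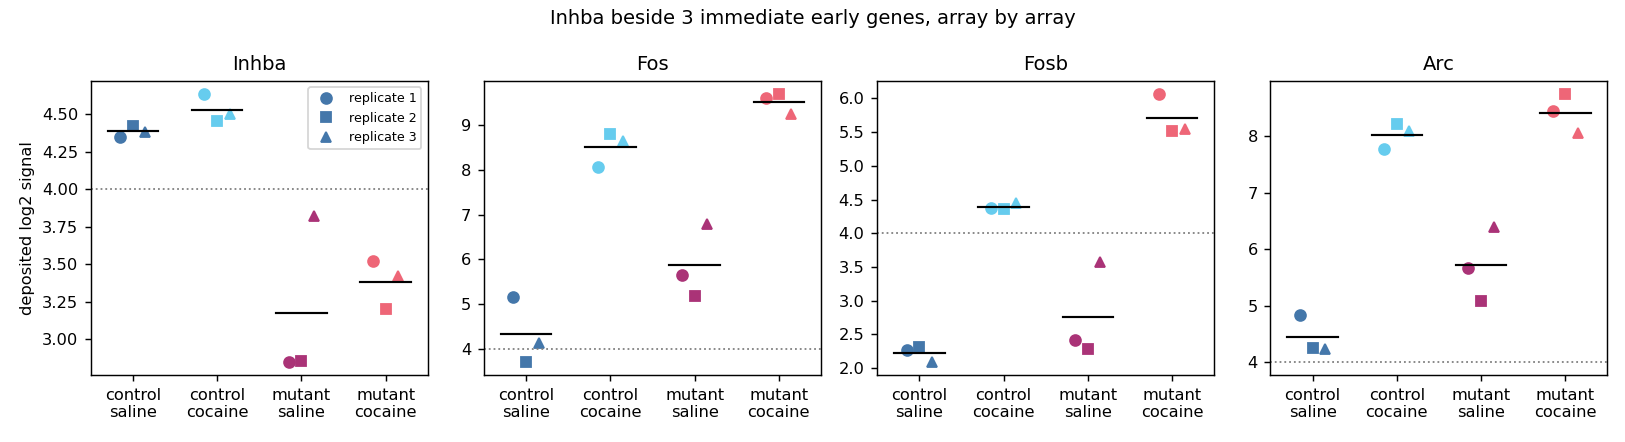
Deposited log2 signal (vertical axis, a separate scale in each panel) of Inhba, Fos, Fosb and Arc in each of the 12 arrays by group (horizontal axis), with symbols for replicate numbers, black bars for group means (n = 3) and a dotted line at the filter's floor of 4. The triangle of the saline-treated mutants is the highest of its group in every panel, at 3.82 for Inhba and 6.78 for Fos.

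None of the 4 members was called by limma for a difference in cocaine response between genotypes, where 0.0721% of all tested probe sets were called, and 0 of 4 had an unadjusted p under 0.05, against 4.98% of all. The differences were −0.04 for Wnt2 (95% interval −0.32 to 0.23), 0.14 for Gdpd5 (−0.15 to 0.43), 0.06 for Inhba (−0.56 to 0.67) and 0.04 for Abi3bp (−0.65 to 0.72). Genes required to differ by genotype in both treatments are unlikely to show a large difference of this kind, so nothing is read from its absence.

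**Figure D4:**
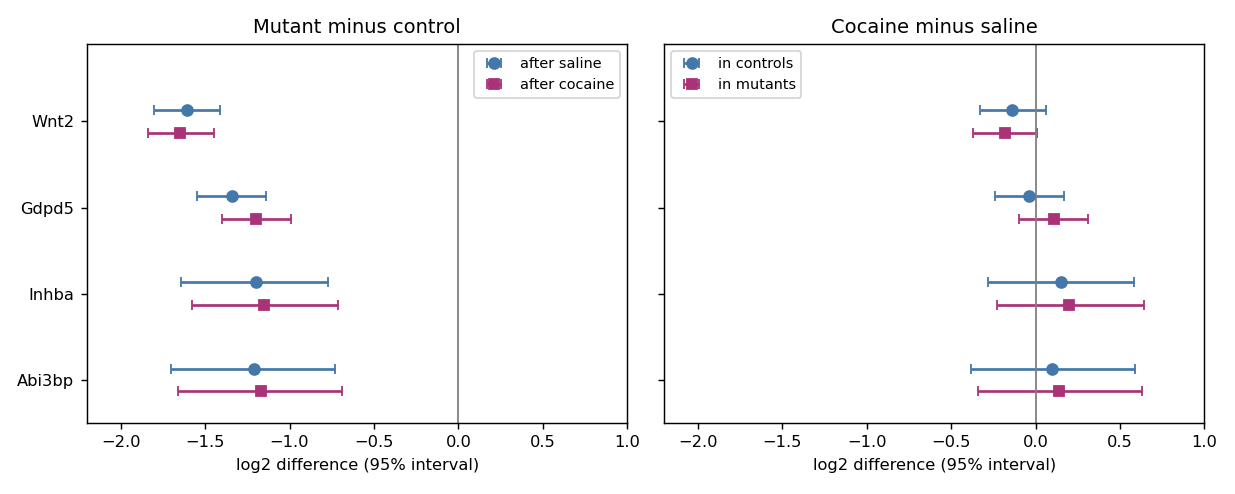
Log2 differences (horizontal axes) with 95% intervals for the 4 tested members (vertical axis), mutant minus control on the left and cocaine minus saline on the right, each from 3 arrays a group. The genotype differences run from −1.65 to −1.15 and were the basis of the choice, while the cocaine responses, shown apart for controls and mutants, run from −0.18 to 0.20 with each of these intervals spanning 0.

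Over all 12 arrays the members followed one another, with Pearson r of 0.873 to 0.972 between tested probe sets of different genes, which is the genotype gap seen again. After subtracting group means, these values ran from −0.451 (Gdpd5 and Inhba) to 0.408 (Wnt2 and Inhba). With 3 arrays a group and mutant levels of Wnt2, Inhba and Abi3bp under the filter's floor, nothing is read from these within-group values. By the 12-array r, the genes most like Wnt2 were Synpr (0.989), the cadherin gene Cdh9 (0.983), the beta-actin gene Actb (0.983), Klhl13 (0.981) and Lrrtm1 (0.98). Those most like Gdpd5 were Srf (0.99), Actb (0.99), Actg1 (0.985), the calcium sensor gene Doc2b (0.981) and Tpm1 (0.98). Inhba was closest to Nrep (0.983), Ryr1 (0.963), Cap2 (0.962), Gcnt2 (0.949) and Tpd52l1 (0.948), and Abi3bp to Rbm5 (0.953), the Arp2/3 subunit gene Arpc5 (0.939), Igfbp4 (0.938), Mpp3 (0.925) and Lrrtm1 (0.923). Since each member separates the arrays by genotype, these values describe likeness and carry no test.

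Genes related to the members were compared between genotypes with 1 probe set per gene, and an averaged difference was called at a limma adjusted p under 0.05. Of the 6651 genes tested, 5.92% were lower and 4.77% higher in mutants (25.0% at an unadjusted p under 0.05), with a median difference of −0.02. In the Wnt pathway most genes were too dim to test. Of 22 ligand and secretion genes on the array 3 passed the filter, and 2 fell, with a list median of −0.21. Wnt7a, the other Wnt ligand that could be tested, read 4.94 to 5.21 in control arrays and 4.40 to 4.76 in mutant arrays, a fall of 0.52 (log2 difference −0.52, SE 0.0737, limma adjusted p = 0.000627) that was called after saline (−0.58) and after cocaine (−0.45). Porcn, the acyltransferase that lipidates Wnt proteins, fell by 0.21 (log2 difference −0.21, limma adjusted p = 0.0447), a call lost in 10 of 12 fits without 1 array. Wls, which carries Wnt proteins to the surface, read −0.18 without a call.

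Of the Wnt receptors 3 of 14 on the array were tested and 0 were called by limma (0 at an unadjusted p under 0.05; median 0.00), with Ryk the brightest at 0.02. Wnt signal transducers had 7 tested members and 1 call, Dvl1, a Dishevelled gene that binds the receptor complex, higher by 0.16 (limma adjusted p = 0.0487; list median −0.05). That call was lost in all 12 fits without 1 array, and the other Dvl1 probe set read −0.14. Ctnnb1, which encodes beta-catenin, read −0.09 without a call. Wnt inhibitors had 2 tested members, 0 called by limma (0 unadjusted; median −0.14), with Dkk3 at −0.21. Of 8 pathway target genes on the array only the cyclin gene Ccnd1 was tested, at −0.10 without a call (0 unadjusted), and Axin2, the usual readout of beta-catenin signalling, lay below the filter with group means of 3.50 to 3.89.

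In the activin and TGF-beta pathway, 2 of 9 ligand genes on the array were tested apart from Inhba. Inha, the inhibin alpha chain that pairs with the Inhba product to form inhibin A, an antagonist of activin, read 5.71 to 6.17 in controls and 5.56 to 5.69 in mutants. It fell by 0.32 (log2 difference −0.32, SE 0.0629, limma adjusted p = 0.00663). Inha was called after saline (−0.37) but not after cocaine (−0.27), and the difference in response (0.10) was not called. Tgfb2 read 0.03 (list median −0.14), and Inhbb, the other common activin chain, lay below the filter in all groups.

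Of 5 tested receptors 2 fell and 0 rose (list median −0.02). Acvr2a, a type II receptor that binds activin A, fell by 0.55 (log2 difference −0.55, SE 0.108, limma adjusted p = 0.00637), with its other probe set at −0.29 and not called. Acvr1, a type I receptor, fell by 0.31 (log2 difference −0.31, SE 0.0725, limma adjusted p = 0.0176), with its other probe set at −0.30 and not called. In the probe sets used, Acvr2a read 6.26 to 6.82 in controls and 5.89 to 6.44 in mutants. Acvr1 read 6.08 to 6.33 in controls and 5.76 to 6.21 in mutants. Both genes overlapped between genotypes, and both were called after cocaine (−0.66 and −0.46) but not after saline (−0.45 and −0.16). The difference in cocaine response between genotypes was −0.21 for Acvr2a and −0.30 for Acvr1, and neither was called. Acvr1b, the main type I receptor for activin and the brightest of the list, read 0.08 without a call. Of 4 tested inhibitors 1 rose (list median 0.22), Pmepa1, which sequesters Smad proteins and is itself induced by TGF-beta. It rose by 0.67 (SE 0.126, limma adjusted p = 0.00501), reading 7.24 to 7.69 in controls and 7.91 to 8.71 in mutants, with its other probe sets at 0.52 (called) and 0.34 (not called). Pmepa1 was called after saline (0.78) but not after cocaine (0.55), and the difference in response (−0.22) was not called. Skil, the brightest uncalled inhibitor, read 0.23. The Smad transducers had 0 of 3 called by limma (0 unadjusted; median 0.03), with Smad4 at −0.12, and follistatin (Fst), which binds activin, lay below the filter.

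No tested relative of Gdpd5 was called, where 5.92% of all tested genes were called lower and 4.77% higher. With 5 genes tested, 0 calls is near those shares, and nothing is read from it. Of 8 genes on the array for the Gdpd family, glycerophosphocholine hydrolysis and the Gdpd5 substrate Reck, 5 were tested, 0 were called by limma and 1 had an unadjusted p under 0.05, with a median of 0.08. Gde1, the brightest, read 0.10, Gdpd1 0.25 (limma adjusted p = 0.0753) and Reck 0.08. In choline phospholipid synthesis 1 of 6 tested genes rose (median 0.11), the choline kinase gene Chkb, by 0.41 (SE 0.0733, limma adjusted p = 0.00343). Chkb was called after saline (0.50) but not after cocaine (0.32), and the difference in response (−0.19) was not called. The brightest uncalled gene of that list, Cept1, read 0.05.

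Of 6 tested genes of the Abi family and the WAVE complex, 2 fell and 0 rose (median −0.18). Brk1, a small WAVE subunit, fell by 0.25 (log2 difference −0.25, SE 0.0509, limma adjusted p = 0.00777), with −0.25 and a call in its other probe set too. Abi1, a WAVE subunit related to Abi3, fell by 0.20 (log2 difference −0.20, limma adjusted p = 0.0441), a call lost in 9 of 12 fits without 1 array, and its other probe sets read −0.06 and −0.08 without a call. Nckap1 read −0.17 without a call. Of 15 tested extracellular matrix genes, 2 fell and 0 rose (median −0.10). Spock1, which encodes the proteoglycan testican-1, fell by 0.35 (log2 difference −0.35, SE 0.0678, limma adjusted p = 0.00599), with its other probe set at −0.07 and not called. The versican gene Vcan fell by 0.54 (log2 difference −0.54, SE 0.143, limma adjusted p = 0.0313), with group means of 3.73 to 4.36 near the filter's floor and the call lost in 6 of 12 fits without 1 array. Sparcl1, the brightest of the list, read 0.12 without a call. None of Brk1, Abi1, Spock1 and Vcan was called in either treatment alone.

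**Figure D5:**
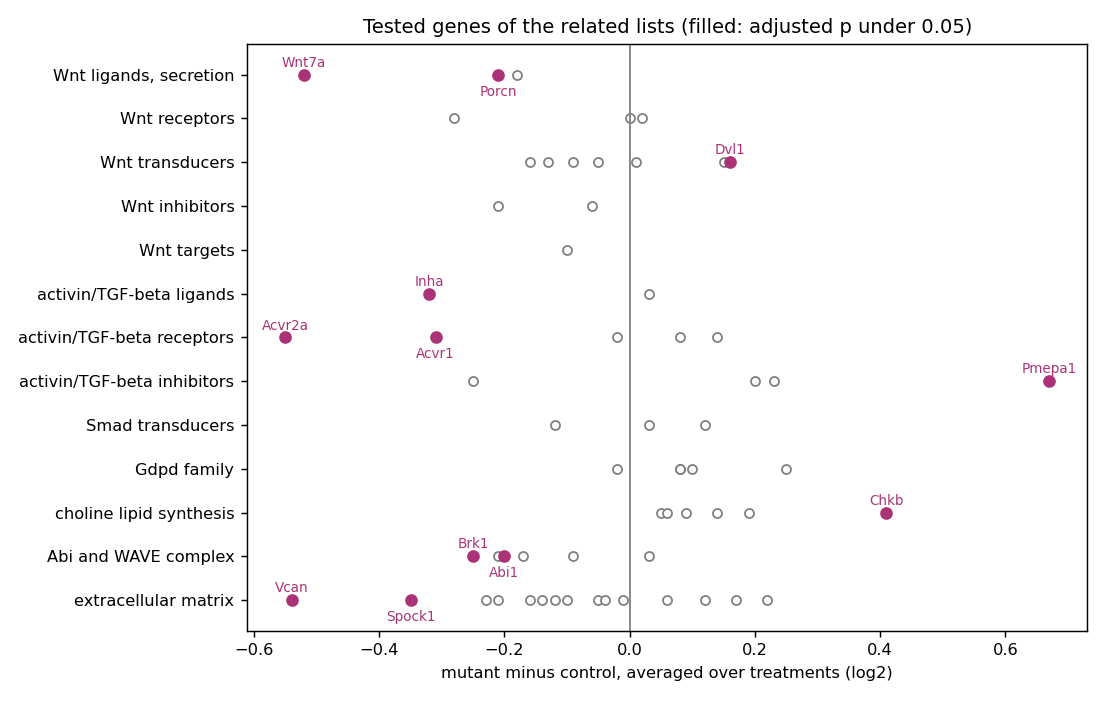
Averaged mutant minus control difference (log2, horizontal axis) of every tested gene in 13 related lists (rows), with filled points for genes called by limma. The called genes lie between −0.55 (Acvr2a) and 0.67 (Pmepa1), and no filled point lies in the Gdpd family, the Smad genes, or the Wnt receptors, inhibitors and targets.

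Markers of cell types were measured beside these results. In a tissue sample fewer cells of a type and less RNA per cell cannot be told apart. Medium spiny neuron markers were bright in all arrays; of 10 tested, Gad2 (0.60), Tac1 (0.35), Gad1 (0.35) and Penk (0.19) were called higher and Rgs9 (−0.33) lower in mutants, the calls of Penk and Rgs9 being lost in 10 and 8 of 12 fits without 1 array. These are the brightest probe sets; the other Gad1 probe set was also called higher (0.57), as was 1 of 3 for Pde10a, a striatal phosphodiesterase gene (0.58; the others, 0.29 and 0.00, were not called). Among the uncalled medium spiny markers, Ppp1r1b read −0.23 (limma adjusted p = 0.0511), while Drd2 (0.14), Bcl11b (0.13) and Foxp1 (0.12) read higher in mutants. The log2 of the summed signal of the medium spiny markers was 13.5 to 13.61 in controls and 13.63 to 13.78 in mutants. Sums of this kind are weighted towards their brightest genes, here Penk, Tac1 and Gad1, called higher, and Ppp1r1b, which read lower. All 7 cortical excitatory markers on the array lay at or below 4 in every array, with a summed level of 5.53 to 5.79 over all groups. Of 9 meningeal fibroblast markers 7 lay at or below 4 in every array, and the summed level was 8.82 to 9.22 in controls and 9.10 to 9.77 in mutants, where Ptgds was called higher (0.63). That sum is mostly Ptgds, which had group means of 8.73 to 9.57. Igf2, the other tested marker of this list, read −0.08 without a call. Choroid plexus markers were near background except Ttr, which read 9.61 in replicate 3 of the cocaine-treated controls and 2.83 to 5.90 elsewhere; Abi3bp read 4.24 in that array, the lowest of its group. Summed levels overlapped between genotypes for astrocyte (11.69 to 11.88 in controls, 11.63 to 11.89 in mutants), oligodendrocyte (12.99 to 13.28, 13.10 to 13.34), microglial (9.51 to 9.78, 9.45 to 9.63), endothelial (6.61 to 7.64, 7.13 to 7.46), interneuron (9.82 to 10.20, 9.83 to 10.28), thalamic (6.44 to 6.71, 6.41 to 6.80) and blood markers (3.25 to 3.44, 3.21 to 3.29), and 0 genes of these lists were called by limma in the probe sets used, with 3 at an unadjusted p under 0.05. The astrocyte gene Gfap read 0.39 in its brightest probe set (limma adjusted p = 0.144) and was called in the other one (0.80, limma adjusted p = 0.0018). The part of the marker differences in the members' results was not tested.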

How the data were processed

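The authors deposited a log2 signal for every probe set on each array. Per the submitters' processing notes these came from GCRMA run in R 2.4.1. No source at hand states the GCRMA options or the log base, which was inferred from the range of the values (1.26 to 13.1). Array medians of 3.75 to 3.78 show a common scale. The number of arrays limits the precision. After removal of 64 control probe sets and the filter, limma 3.58.1 in R 4.3.3 was fitted with a mean for each group (8 residual and 4.71 prior degrees of freedom), with two-sided p-values adjusted by Benjamini-Hochberg over all 11102 probe sets; the script was tested on simulated data. A single gene symbol was annotated to 20393 probe sets, more than 1 to 691 and no symbol to 1606, and 20364 were matched to RefSeq by Entrez identifier.

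The members and lists were chosen with earlier results of these data known. Named genes are all member probe sets, up to 4 called genes and the brightest uncalled gene of each related list (1 probe set per gene, the brightest), rank neighbours, and the 5 genes most correlated with each member; others named were chosen after their values were seen. Alternatives were the filter, normalization, array weights, an intensity trend, a replicate block, fits of only the groups compared, fits without each array, and all probe sets of a list.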

Additional observations from a re-analysis of the deposited data

How the results depend on the processing

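The averaged genotype differences of the 4 members kept their direction in every alternative in which they were tested, and ranged from −1.65 to −1.59 for Wnt2, −1.31 to −1.24 for Gdpd5, −1.34 to −1.09 for Inhba and −1.33 to −1.07 for Abi3bp. With the stricter filter at 5, Wnt2, Inhba and Abi3bp were no longer tested. The averaged cocaine response of Inhba ranged from 0.10 to 0.34 in fits without 1 array and was called only without replicate 3 of the saline-treated mutants, where the genotype difference after saline moved to −1.52. In fits without 1 array the numbers of probe sets called ranged from 219 to 350 for the genotype difference after saline (main 331), 265 to 537 after cocaine (465), and 131 to 240 for cocaine in mutants (213). With only the groups compared, 152 were called for genotype after saline. Array weights gave 708 for genotype after cocaine and 88 for cocaine in controls (main 50), and no filter gave 5 in place of 8 for the difference in response; the cause was not tested. Replicate numbers showed no sign of pairing the arrays: same-numbered arrays had correlations of deviations from −0.14 to 0.12, with 1 of 18 over 0.1. Arrays of different groups and different numbers ranged from −0.10 to 0.16. This check could show only a strong effect shared by same-numbered arrays. With the replicate block, 907 probe sets in place of 1051 were called for the averaged genotype difference and no member's cocaine call changed. Levels under 4 in mutants limit the folds of Wnt2, Inhba and Abi3bp.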
